A study of Mus musculus with 18 samples.

Results

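The common gamma chain cytokine receptors were examined in group 2 innate lymphoid cells (ILC2), lymphocytes without rearranged antigen receptors that secrete type 2 cytokines. The members were chosen by gene symbol. They were the shared chain Il2rg, the cytokine-specific chains Il7r, Il2ra, Il2rb, Il4ra and Il9r, and the kinase Jak3, which are 7 of the 24781 genes in the table. All 7 had counts, and 5 of them were among the 1916 genes with enough counts to be tested. Il9r and Jak3 did not reach the filter on low counts. Il2rb and Il4ra reached it only through lung libraries, where they were highest. Their lung minus marrow p-values, and counts of called members over these 5 genes, therefore describe the members and support nothing further.

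RNA was counted in 18 libraries of sorted ILC2, which fell into 6 groups of 3. Mature and immature ILC2 came from bone marrow and a further population from lung, and each was taken from Rag2 KO mice (control) and from CD45 KO mice that also lacked Rag2 (CD45 KO). All groups therefore shared the Rag2 deficiency, which leaves mice without T and B cells. The labels give no age, no cytokine treatment and no statement that replicates came from separate animals, so p-values measure only the spread between these libraries. Ptprc encodes CD45, a tyrosine phosphatase of the cell surface that acts on Src family kinases and is also described as acting on Janus kinases.

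Receptors of this family pair the shared gamma chain with a chain that sets which cytokine is bound. The gamma chain carries the kinase Jak3, the partner chain carries Jak1, and together they phosphorylate STAT factors, mainly Stat5 below the receptors for IL-2, IL-7 and IL-9 and Stat6 below the receptor for IL-4. ILC2 need IL-7 for their development and survival, respond to IL-2 through a high-affinity receptor that contains Il2ra, and are themselves a source of IL-9, IL-13 and, in some settings, IL-4.

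Library totals ran from 68077 to 122250 counts, so 1 count corresponded to between 8.42 and 14.9 CPM, the unit of all levels given here, which scales each count to a common library size. Totals were first scaled by the trimmed mean of M values (TMM). Ptprc averaged 418 ± 148 CPM in mature controls against 142 ± 83.2 in mature CD45 KO, 389 ± 65.8 against 93.0 ± 48.5 in immature ILC2, and 579 ± 43.7 against 165 ± 59.7 in lung (SD, n = 3 each). Ptprc counts were thus lower but not absent in CD45 KO libraries, and mature CD45 KO replicate 1, at 238 CPM, stood apart from the 101 and 88.0 CPM of its group. Mature control replicate 1 also stood apart, with a summed level of 2116 CPM over 6 myeloid markers, nearly all of it S100a8 and S100a9, where the lowest mature control had 80.2 CPM. All 12 ILC2 markers had counts in every group, with summed levels of 5251 to 7226 CPM in marrow and 11049 to 14116 CPM in lung. Lung CD45 KO replicate 1 held 8 Lyz2 counts and 3 Siglecf counts, with a myeloid marker sum of 125 CPM, while the other 5 lung libraries were at 0 for the myeloid and eosinophil lists. Markers of other lymphocytes were low: the T cell list summed to 42.8 to 52.8 CPM in lung controls and 13.9 to 46.5 CPM in lung CD45 KO libraries, nearly all from Cd3g (26 counts in all libraries), while Cd4 and Cd8a were at 0 everywhere. Cd79b had 16 counts and Ms4a1 none, and Klrb1c had 2 counts while Ncr1 and Eomes had none.

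The members lie apart in the genome. In the mm10 build with GENCODE M21, Il2rg lies on chrX:101264378-101268255 (minus strand), Il7r on chr15:9505788-9530176 (minus), Il2ra on chr2:11642807-11693193 (plus) and Il2rb on chr15:78479256-78495271 (minus). Il4ra lies on chr7:125552120-125579474 (plus), Il9r on chr11:32187541-32200279 (minus) and Jak3 on chr8:71676296-71690575 (plus). All are protein-coding. Annotated genes overlap Il2rg (Gm20489), Il2ra (Gm37881) and Jak3 (Insl3) on the same strand, and Il4ra (Gm44876, antisense) on the opposite strand. Strand could separate reads of the Il4ra pair only, and the sources do not say whether counting used it. How reads in these overlaps were assigned is not stated either.

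RefSeq promoter sequence (GRCm38.p6) was found for 6 of the 7 members and is shown for the 3 that were higher in lung than in mature controls by the test described with each, and for Il2ra, which was not. The Il2rg, Il4ra and Il2ra stretches end before the annotated start, while the Il7r stretches lie before the RefSeq start but inside the GENCODE gene. All are written 5′ to 3′ on the gene's strand and carry in capitals any match to 5 searched motifs. The first 2 stretches are Il2rg at chrX:101268256-101268505 (minus strand) and Il4ra at chr7:125552021-125552119 (plus strand).
Il2rg: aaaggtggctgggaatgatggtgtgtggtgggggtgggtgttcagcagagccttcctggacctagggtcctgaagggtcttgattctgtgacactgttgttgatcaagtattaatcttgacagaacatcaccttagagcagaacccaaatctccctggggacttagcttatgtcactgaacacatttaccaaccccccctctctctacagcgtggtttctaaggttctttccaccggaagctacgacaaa
Il4ra: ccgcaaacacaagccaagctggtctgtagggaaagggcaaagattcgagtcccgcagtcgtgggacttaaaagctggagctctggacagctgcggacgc
The Il7r stretches are at chr15:9530000-9530029 and chr15:9529908-9529937 (minus strand).
Il7r, STAT motif: agttcaggagcTTCAGGGAAtaccaagatg
Il7r, ETS motif: ccttttgctcagACTTCCtgtttctggcac
The Il2ra stretch is at chr2:11642542-11642791 (plus strand).
Il2ra: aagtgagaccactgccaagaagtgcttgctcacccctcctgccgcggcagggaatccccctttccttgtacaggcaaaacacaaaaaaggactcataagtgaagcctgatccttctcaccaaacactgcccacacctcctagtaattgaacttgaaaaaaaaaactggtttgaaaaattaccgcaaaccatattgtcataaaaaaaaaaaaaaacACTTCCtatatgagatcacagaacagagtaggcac
The motifs were searched on both strands in the 250 bases before each RefSeq start. They were TTCNNNGAA, the STAT consensus with a spacer of 3 bases, which 7.02% of 32851 windows of that length held, the same ends with a spacer of 4 bases, which Stat6 prefers (5.85%), the GATA motif AGATAA (9.99%), the AP-1 motif TGANTCA (6.75%) and the ETS motif GGAAGT (19.7%). Il7r held TTCNNNGAA, and Il7r and Il2ra held GGAAGT on the opposite strand, read as ACTTCC. Il2rg, Il4ra and Jak3 held none of the 5 motifs in this window, and Il9r held AGATAA at 2 places. The motif with a spacer of 4 was found in none of the 6. These are matches of letters, and no binding was measured in these libraries.

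**Figure D1:**
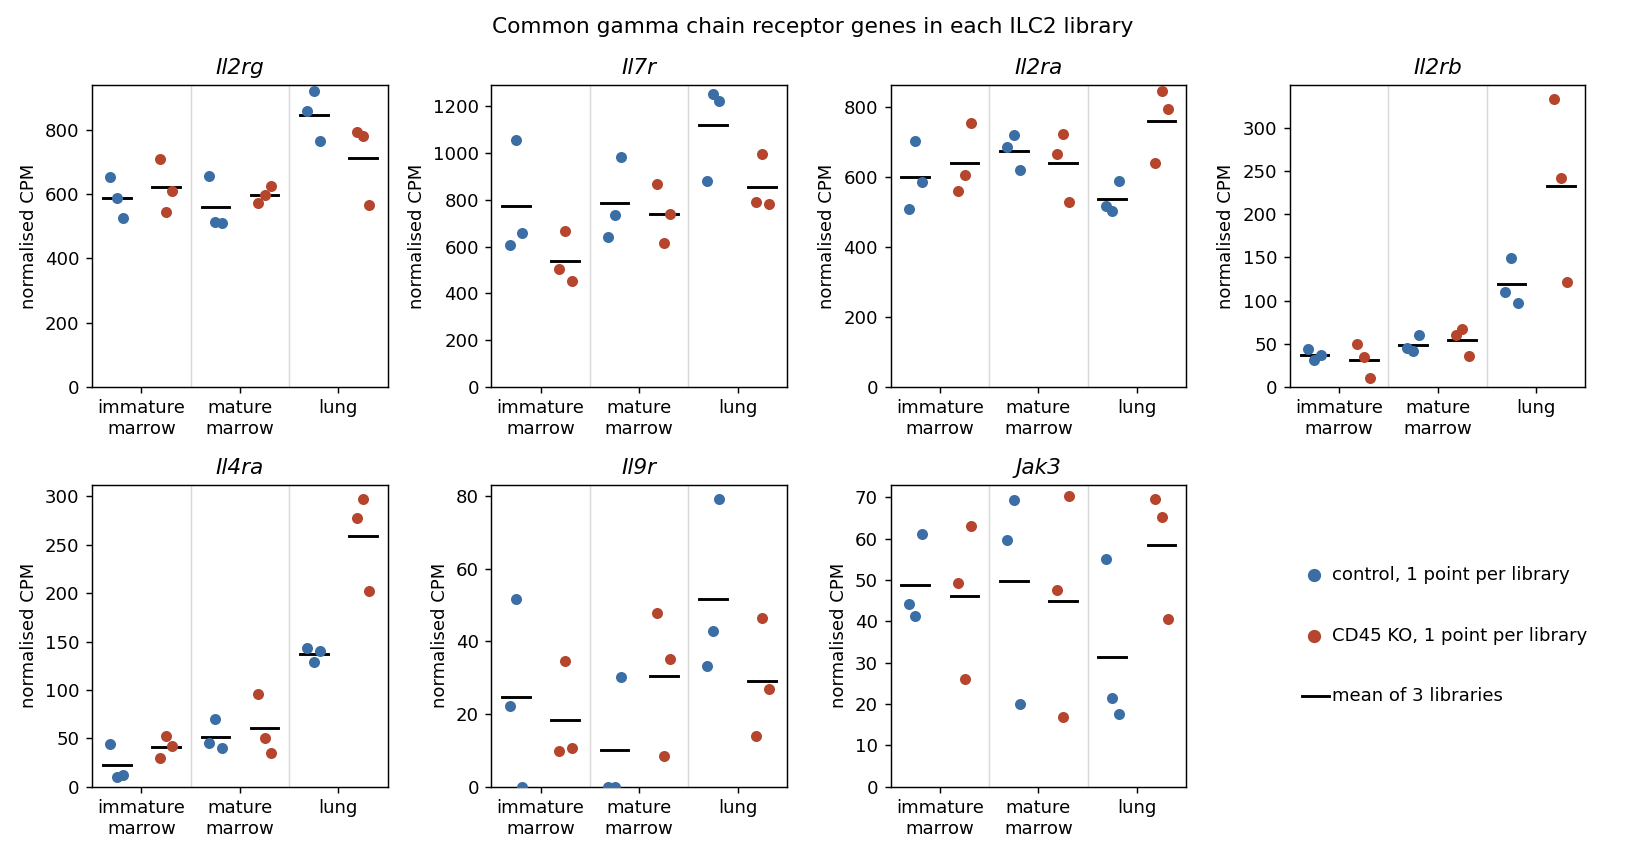
Normalised CPM (vertical axis, starting at 0) of the 7 members in each library, by population and genotype, with 1 point per library and a bar at the mean of 3 libraries. Il4ra and Il2rb were highest in lung libraries, Il2rg and Il7r were highest on average in lung controls, and Il9r and Jak3 stayed near the counting floor, where 3 counts correspond to 25.3 to 44.7 CPM.

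The shared chain Il2rg, which every receptor of the family uses, was present in all 18 libraries and was highest in lung controls. It was at 652, 589 and 525 CPM in immature controls, 656, 514 and 511 CPM in mature controls, and 859.7, 919.9 and 765 CPM in lung controls. The lung controls lay above every marrow control library. In CD45 KO libraries it was at 709.7, 545 and 609 CPM in immature ILC2, 572, 598 and 625 CPM in mature ILC2, and 793, 782 and 567 CPM in lung. The lung CD45 KO libraries overlapped the marrow, because replicate 3 was lower than the other two. Here and for the other members, separation of lung from marrow libraries only describes the values, with no share of all tested genes set beside it.

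By the quasi-likelihood test of edgeR (p-values adjusted by Benjamini and Hochberg's method over all 1916 genes) Il2rg was 1.52-fold higher in lung than in mature controls (log2 0.61 ± 0.17 SE, adjusted p = 0.00484) and 1.43-fold higher than in immature controls (log2 0.52 ± 0.17, adjusted p = 0.0139). The order of mean levels was lung control (848 ± 78.1 CPM), lung CD45 KO (714 ± 127), immature CD45 KO (621 ± 82.9), mature CD45 KO (598 ± 26.4), immature control (589 ± 63.8) and mature control (560.2 ± 82.7; SD, n = 3 each). Neighbours in this order overlapped in every case. Without CD45 the lung minus marrow differences of Il2rg were smaller and did not pass, at log2 0.26 against mature (adjusted p = 0.302) and 0.22 against immature ILC2 (adjusted p = 0.404). The difference between genotypes was itself tested as the lung CD45 effect minus the mean marrow CD45 effect, which was log2 -0.32 ± 0.21 (95% interval -0.73 to 0.09, adjusted p = 0.558). The call against mature controls was lost without mature control replicate 3 (adjusted p = 0.0524). The call against immature controls was lost without immature control replicate 3 (0.0840) or lung control replicate 2 (0.0671), and with the Wald test of DESeq2 (0.0618).

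Il7r encodes the IL-7 receptor alpha chain, which also serves the TSLP receptor. Its controls were at 608, 1054 and 659 CPM in immature ILC2, 641, 736 and 982 CPM in mature ILC2 and 882, 1251 and 1222 CPM in lung. Lung controls were highest on average but overlapped both marrow groups. CD45 KO libraries were at 503, 666 and 452 CPM in immature ILC2, 869.7, 615 and 739 CPM in mature ILC2 and 793, 996 and 783 CPM in lung. Immature CD45 KO replicates 1 and 3 were the lowest of all 18 libraries, and the lung CD45 KO libraries lay above them without overlap.

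Il7r was 1.40-fold higher in lung than in mature controls (log2 0.48 ± 0.17, adjusted p = 0.0287) and 1.44-fold higher than in immature controls (log2 0.52 ± 0.17, adjusted p = 0.0142). Among CD45 KO libraries it was 1.59-fold higher in lung than in immature ILC2 (log2 0.67 ± 0.19, adjusted p = 0.00349), while the difference from mature ILC2 was log2 0.25 (adjusted p = 0.362). Mean levels fell in the order lung control (1118 ± 206 CPM), lung CD45 KO (857 ± 120.2), mature control (786 ± 176), immature control (774 ± 244), mature CD45 KO (741 ± 127) and immature CD45 KO (540.2 ± 112; SD, n = 3 each), and each neighbouring pair overlapped. The call against mature controls was lost without mature control replicate 1 (adjusted p = 0.168) or 2 (0.102), without lung control replicate 2 (0.121) or 3 (0.115), with DESeq2 (0.127), and without mature control replicate 1 and mature CD45 KO replicate 1 together (0.127). The call against immature controls was lost without immature control replicate 1 (0.152) or 3 (0.0996), without lung control replicate 2 (0.0760) or 3 (0.0751), and with DESeq2 (0.0869). Among CD45 KO libraries the call was lost without lung CD45 KO replicate 2 (0.0657).

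Il2ra encodes CD25, the alpha chain that gives the IL-2 receptor its high affinity. Controls were at 509, 703 and 586 CPM in immature ILC2, 686, 722 and 622 CPM in mature ILC2 and 518, 503 and 589 CPM in lung. Lung controls were thus the lowest group on average and lay below all mature controls. CD45 KO libraries were at 562, 606 and 756 CPM in immature ILC2, 667, 724 and 528 CPM in mature ILC2 and 639.7, 847 and 796 CPM in lung. All 3 lung CD45 KO libraries lay above all 3 lung controls, where 19.7% of all tested genes showed no overlap between these groups.

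Il2ra did not differ between lung and marrow controls beyond the threshold, with log2 -0.32 ± 0.18 against mature (95% interval -0.68 to 0.04, adjusted p = 0.209) and -0.16 ± 0.18 against immature ILC2 (-0.52 to 0.20, adjusted p = 0.577). Without CD45 the same differences were log2 0.27 in both cases (adjusted p = 0.281 and 0.276). Mean levels fell in the order lung CD45 KO (761 ± 108 CPM), mature control (676 ± 50.7), immature CD45 KO (641 ± 102), mature CD45 KO (639.8 ± 101), immature control (599 ± 97.9) and lung control (537 ± 46.1; SD, n = 3 each), and neighbouring groups overlapped throughout.

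Il2rb encodes the beta chain shared by the receptors for IL-2 and IL-15, and its counts were low. It had 4, 3 and 3 counts in immature controls (44.2, 31.0 and 36.6 CPM) and 3, 3 and 6 counts in mature controls (44.7, 41.6 and 60.2 CPM). Lung controls had 10, 14 and 11 counts (110.2, 149.7 and 96.7 CPM), above every marrow library of either genotype. In CD45 KO mice it was at 49.3, 34.6 and 10.5 CPM in immature ILC2, 59.6, 67.4 and 35.2 CPM in mature ILC2 and 334, 242 and 121 CPM in lung. The lung CD45 KO group was highest on average, with replicate 3 inside the range of the lung controls.

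Il2rb was 3.09-fold higher in lung than in immature controls (log2 1.63 ± 0.50, adjusted p = 0.00985), a call lost without lung control replicate 2 (adjusted p = 0.0548). The difference from mature controls, 2.31-fold (log2 1.21 ± 0.49, 95% interval 0.24 to 2.18), did not pass (adjusted p = 0.0562). Among CD45 KO libraries it was 4.25-fold higher in lung than in mature ILC2 (log2 2.09 ± 0.40, adjusted p = 1.40e-05) and 7.02-fold higher than in immature ILC2 (log2 2.81 ± 0.45, adjusted p = 1.80e-07). Without lung CD45 KO replicate 1 these were log2 1.83 and 2.56 (adjusted p = 0.00102 and 2.25e-05). The order of means was lung CD45 KO (232 ± 106 CPM), lung control (119 ± 27.6), mature CD45 KO (54.0 ± 16.8), mature control (48.8 ± 9.92), immature control (37.3 ± 6.63) and immature CD45 KO (31.5 ± 19.6; SD, n = 3 each). Lung control and mature CD45 KO were the only neighbours whose libraries did not overlap.

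Il4ra encodes the chain that binds IL-4 and, together with Il13ra1, which had 0 counts in all libraries, IL-13. It had 4, 1 and 1 counts in immature controls (44.2, 10.3 and 12.2 CPM), 3, 5 and 4 counts in mature controls (44.7, 69.4 and 40.1 CPM) and 13, 12 and 16 counts in lung controls (143, 128 and 141 CPM). In CD45 KO mice it was at 29.6, 51.9 and 42.0 CPM in immature ILC2, 95.3, 50.5 and 35.2 CPM in mature ILC2 and 278, 298 and 202 CPM in lung. The lung libraries of both genotypes lay above every marrow library. The lung CD45 KO libraries lay above every lung control, where 19.7% of all tested genes showed no overlap between these groups.

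Il4ra was 2.69-fold higher in lung than in mature controls (log2 1.43 ± 0.46, adjusted p = 0.0128) and 5.88-fold higher than in immature controls (log2 2.56 ± 0.53, adjusted p = 6.14e-05). Among CD45 KO libraries it was 4.52-fold higher in lung than in mature ILC2 (log2 2.18 ± 0.37, adjusted p = 9.69e-07) and 6.16-fold higher than in immature ILC2 (log2 2.62 ± 0.40, adjusted p = 4.32e-08). The call against mature controls was lost without mature control replicate 3 (adjusted p = 0.0882) and with DESeq2 (0.0614). The call against immature controls and both calls in CD45 KO mice passed with every library left out in turn and under each other setting that was run. Since Il4ra was admitted to the main fit by lung libraries alone, these calls describe the gene and support nothing further. Mean levels were 259 ± 50.4 CPM in lung CD45 KO, 137 ± 7.98 in lung control, 60.3 ± 31.2 in mature CD45 KO, 51.4 ± 15.8 in mature control, 41.2 ± 11.2 in immature CD45 KO and 22.3 ± 19.0 in immature control (SD, n = 3 each). The libraries of lung CD45 KO and lung control did not overlap, nor did those of lung control and mature CD45 KO, while the other neighbours overlapped.

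Il9r encodes the IL-9 receptor chain, and Jak3 the kinase bound to the gamma chain. Il9r had between 0 and 9 counts per library and 49 in all, with no count in 3 control libraries, all of them from marrow. In the shallowest of these the floor of 3 counts corresponds to 44.7 CPM. Its highest library was lung control replicate 3, at 79.1 CPM, while the other lung controls were at 33.1 and 42.8 CPM. Jak3 had between 2 and 8 counts per library and 76 in all, with means from 31.4 ± 20.7 CPM in lung controls to 58.4 ± 15.7 CPM in lung CD45 KO (SD, n = 3). Neither gene passed in any of the 12 comparisons when the fit was run without the filter, where the smallest adjusted p was 0.143, for Il9r in lung against mature controls. No difference in either gene was detected at these depths.

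**Figure D2:**
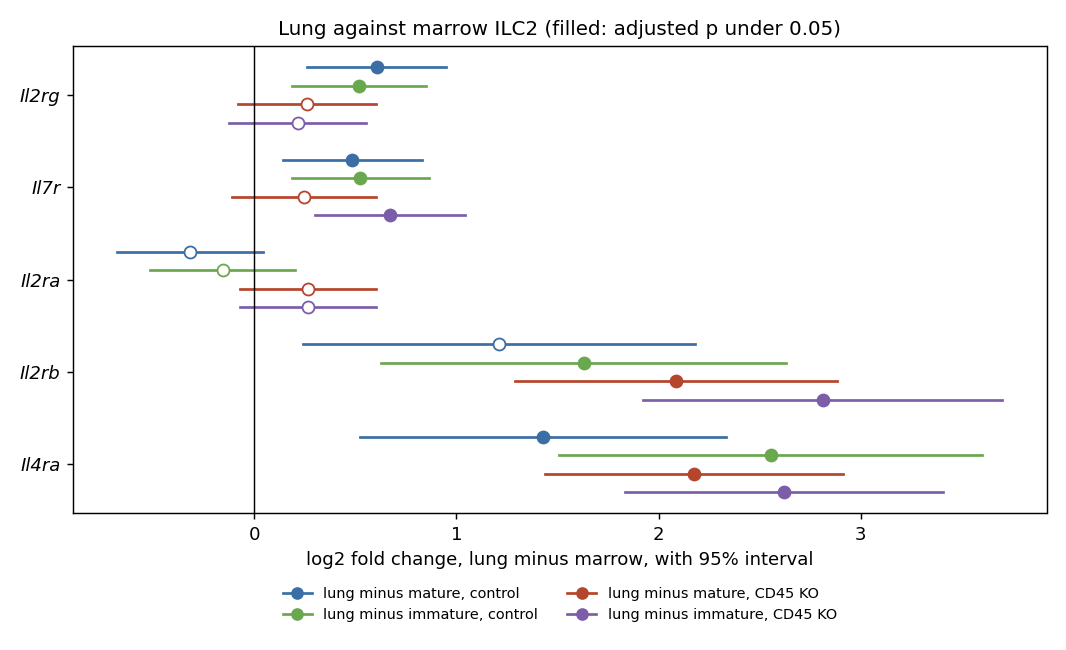
Log2 fold change of lung over marrow ILC2 (horizontal axis) for the 5 tested members, with 95% intervals and 1 row per marrow stage and genotype. Filled points had an adjusted p under 0.05. Il4ra was filled in all 4 comparisons and Il2ra in none.

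Counted over the family, 3 of the 5 tested members rose in lung against mature controls (Il2rg, Il7r and Il4ra), where 15.0% of all tested genes were called higher. Against immature controls 4 rose (Il2rb in addition), with 14.6% of all genes called higher. Among CD45 KO libraries 2 members rose against mature ILC2 (Il2rb and Il4ra, background 14.8%) and 3 against immature ILC2 (Il7r in addition, background 15.7%).  No member passed between mature and immature ILC2, in controls (background 0.0522%) or in CD45 KO mice (background 0.678%). Of those stage differences the one with the smallest adjusted p was that of Il7r in CD45 KO mice, at log2 0.42 ± 0.19 (95% interval 0.05 to 0.79, adjusted p = 0.495). Fewer cells with a transcript and less transcript per cell cannot be told apart in these bulk libraries. The summed ILC2 marker level, 11049 to 14116 CPM in lung and 5251 to 7226 CPM in marrow, moved in the same direction as the members that rose. From mature to lung controls, however, Id2 (1250.4 to 539 CPM), Il1rl1 (1538 to 1250) and Klrg1 (230 to 124) fell. The other listed ILC2 markers rose, among them Areg (4.97 to 1259) and Rora (375 to 1694). The part of marker levels in the differences was not tested.

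Loss of CD45 moved no member past the threshold in any population. None of the 5 tested members passed in lung ILC2 (background 2.51% of genes called), immature ILC2 (1.67%) or mature ILC2 (0.261%), or for the mean of both marrow stages (2.97%). At an unadjusted p under 0.05 the test called 173 genes in the mature comparison, 236 in the immature one and 277 in that of lung. DESeq2's Wald test also called no member in these comparisons.

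In lung Il4ra, Il2rb and Il2ra were the tested members with positive differences between CD45 KO and control. Below the filter, Jak3 and Il9r differed by log2 0.95 and -0.73 in the edgeR fit without it (adjusted p = 0.965 each). Il4ra differed by 1.90-fold (log2 0.93 ± 0.31, 95% interval 0.30 to 1.55, adjusted p = 0.0984), Il2rb by 1.96-fold (log2 0.97 ± 0.35, 0.28 to 1.67, adjusted p = 0.120) and Il2ra by 1.42-fold (log2 0.51 ± 0.18, 0.16 to 0.86, adjusted p = 0.103). The libraries of the groups did not overlap for Il4ra and Il2ra, as was so for 19.7% of all tested genes in lung. Il2rb overlapped through lung CD45 KO replicate 3, and it passed when that library was left out (log2 1.27, adjusted p = 0.0351). With all libraries, fewer than 3 lung controls reached the filter's cutoff for Il2rb. It was admitted only with CD45 KO libraries included, so its lung CD45 p-value describes the gene and supports nothing further. Without lung CD45 KO replicate 1, which held the myeloid counts and the highest Il2rb level, the differences were log2 0.71 for Il2rb (adjusted p = 0.503), 0.92 for Il4ra (0.215) and 0.63 for Il2ra (0.0679). Il7r and Il2rg differed the other way, by log2 -0.37 ± 0.17 (-0.71 to -0.03, adjusted p = 0.272) and -0.23 ± 0.16 (-0.56 to 0.09, adjusted p = 0.567).

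In immature ILC2 the CD45 KO minus control difference of Il7r was log2 -0.52 ± 0.19 (95% interval -0.89 to -0.14, adjusted p = 0.171), and those of Il2rg and Il2ra were log2 0.07 and 0.09 (adjusted p = 0.927 and 0.901). In mature ILC2 Il2rg, Il7r and Il2ra differed by log2 0.11, -0.13 and -0.07 (adjusted p = 0.922, 0.898 and 0.958). Il2rb and Il4ra rested on 1 to 8 counts per marrow library, and their intervals were wide, reaching from log2 -1.51 to 1.09 for Il2rb and from -0.48 to 2.20 for Il4ra in immature ILC2. Over both marrow stages Il7r differed by log2 -0.32 ± 0.13 (adjusted p = 0.169). It passed, at log2 -0.43 (adjusted p = 0.0436), when the mature libraries that stood apart, control replicate 1 and CD45 KO replicate 1, were left out together, a setting chosen after seeing the data.

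The CD45 effect in lung was set against its mean in marrow in a single contrast. None of the 5 members passed (background 1.25% of genes). The differences were log2 1.03 ± 0.57 for Il2rb (adjusted p = 0.445), 0.50 ± 0.21 for Il2ra (95% interval 0.08 to 0.93, adjusted p = 0.266), 0.41 ± 0.58 for Il4ra (adjusted p = 0.830), -0.32 ± 0.21 for Il2rg (adjusted p = 0.558) and -0.05 ± 0.22 for Il7r (adjusted p = 0.968). Between mature and immature ILC2 no member passed either, and of all genes 0% did with edgeR, although 94 had an unadjusted p under 0.05.

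**Figure D3:**
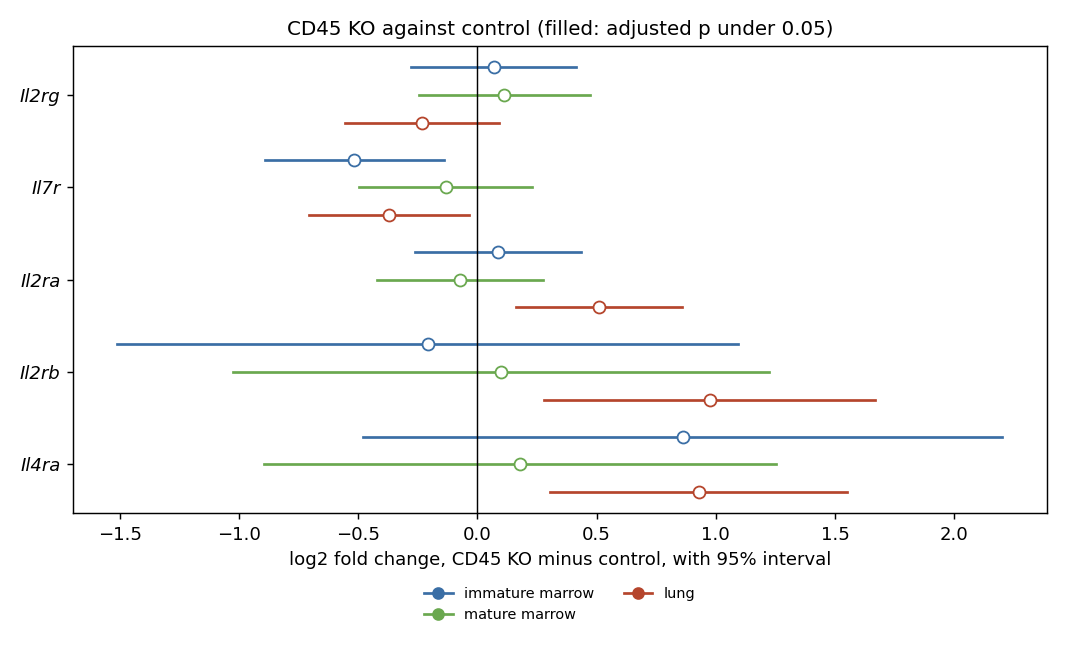
Log2 fold change of CD45 KO over control (horizontal axis) for the 5 tested members in each population, with 95% intervals. All points are open, since none had an adjusted p under 0.05, and the lung intervals of Il2ra, Il2rb and Il4ra lie above 0 while that of Il7r lies below 0.

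Beside the receptors, 63 genes of their pathway were followed: ligands, partner chains, kinases and STATs, adaptors and lipid kinases, inhibitors, and targets. Of these, 25 had enough counts to be tested. In lung against mature controls 5 rose and 5 fell, with a median of log2 0.10 against -0.03 over all tested genes, of which 15.0% rose and 10.6% fell. Against immature controls 6 rose and 6 fell (median 0.26, all genes -0.02, 14.6% up and 10.9% down). Without CD45, 8 rose and 4 fell against mature ILC2 (median 0.18, all genes -0.03, 14.8% up and 9.55% down), and 6 rose and 5 fell against immature ILC2 (median 0.30, all genes -0.02, 15.7% up and 9.55% down). The filter asked for 3 libraries at its cutoff. Among the genes called in these comparisons, Il2, Il13, Irs2, Fosl2 and Myc had fewer than 3 such libraries in marrow, and Pik3r1, Socs1 and Klf2 had fewer than 3 in lung. These genes were admitted through the tissue where they were high, and Myc through lung CD45 KO libraries only. Some tested genes that were not called also had fewer than 3 such libraries in a tissue. The counts of genes that rose or fell therefore describe the list and support nothing further.

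Among ligands, Il2, the T cell growth factor that binds the receptor of Il2ra, Il2rb and Il2rg, was found almost only in lung. It had 0 counts in all mature libraries, 1 and 2 counts in all in immature control and CD45 KO groups, 61 counts in lung controls (206 ± 44.2 CPM) and 46 in lung CD45 KO (184 ± 72.9 CPM; SD, n = 3 each). Il13, a type 2 cytokine whose receptor includes Il4ra, had 0 counts in mature libraries, 1 in all immature libraries, 30 counts in lung controls (105 ± 80.1 CPM) and 69 in lung CD45 KO (276 ± 64.5 CPM). It rose in lung ILC2 without CD45 (log2 1.42 ± 0.40, adjusted p = 0.0346) and was the only one of the 25 tested genes of the list to pass there, where 2.51% of all tested genes were called. Fewer than 3 lung controls reached the filter's cutoff for Il13, so it was admitted through the CD45 KO libraries, where it was high. This call therefore describes the gene and supports nothing further.

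Among adaptors, Irs2, which couples Il4ra to phosphatidylinositol 3-kinase, was at 43.1 ± 22.8 CPM in mature controls, 30.8 ± 19.4 in immature controls and 237 ± 15.9 in lung controls (SD, n = 3 each). In CD45 KO mice it was at 81.8 ± 55.3, 29.2 ± 11.5 and 401 ± 45.9 CPM in the same order, and it rose in lung in all 4 comparisons. Its pattern over the 18 libraries was also the one most like that of Il4ra. Pik3r1, the regulatory subunit of phosphatidylinositol 3-kinase, fell in lung against mature controls (log2 -1.11 ± 0.33, adjusted p = 0.00779) and in the other 3 lung comparisons.

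Among inhibitors and targets, Socs1, which binds and inhibits Janus kinases, fell from 270.3 ± 41.9 CPM in mature and 281 ± 52.4 in immature controls to 39.4 ± 16.2 in lung controls (SD, n = 3 each). Its log2 fold change was -2.72 ± 0.38 against mature controls (adjusted p = 7.27e-09) and -2.75 ± 0.37 against immature controls (adjusted p = 2.03e-09). Id2, a regulator of innate lymphoid identity, fell from 1250.4 ± 179 CPM in mature to 539 ± 50.3 in lung controls (log2 -1.23 ± 0.16, adjusted p = 8.77e-10). Klf2, a transcription factor of quiescence and egress, had 34 and 32 counts in mature and immature controls and 1 in lung controls. Fosl2, an AP-1 subunit, went the other way, from 14.9 ± 25.8 CPM in mature controls to 837 ± 117 in lung controls.

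With CD45 absent, no gene of the list passed in mature ILC2, 1 rose in immature ILC2 and 2 rose over both marrow stages, out of 25 tested, while none fell (background 0.261%, 1.67% and 2.97% of all tested genes). Pim1, a STAT5-induced kinase, went from 120.2 ± 51.5 CPM in immature controls to 270.3 ± 73.3 CPM in immature CD45 KO (SD, n = 3 each; log2 1.13 ± 0.31, adjusted p = 0.0321). Over both stages Pim1 (log2 0.81, adjusted p = 0.0175) and Pik3r1 (0.64, adjusted p = 0.0214) passed. No gene of the list passed for the difference between lung and marrow CD45 effects in the filtered fit (background 1.25%).

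**Figure D4:**
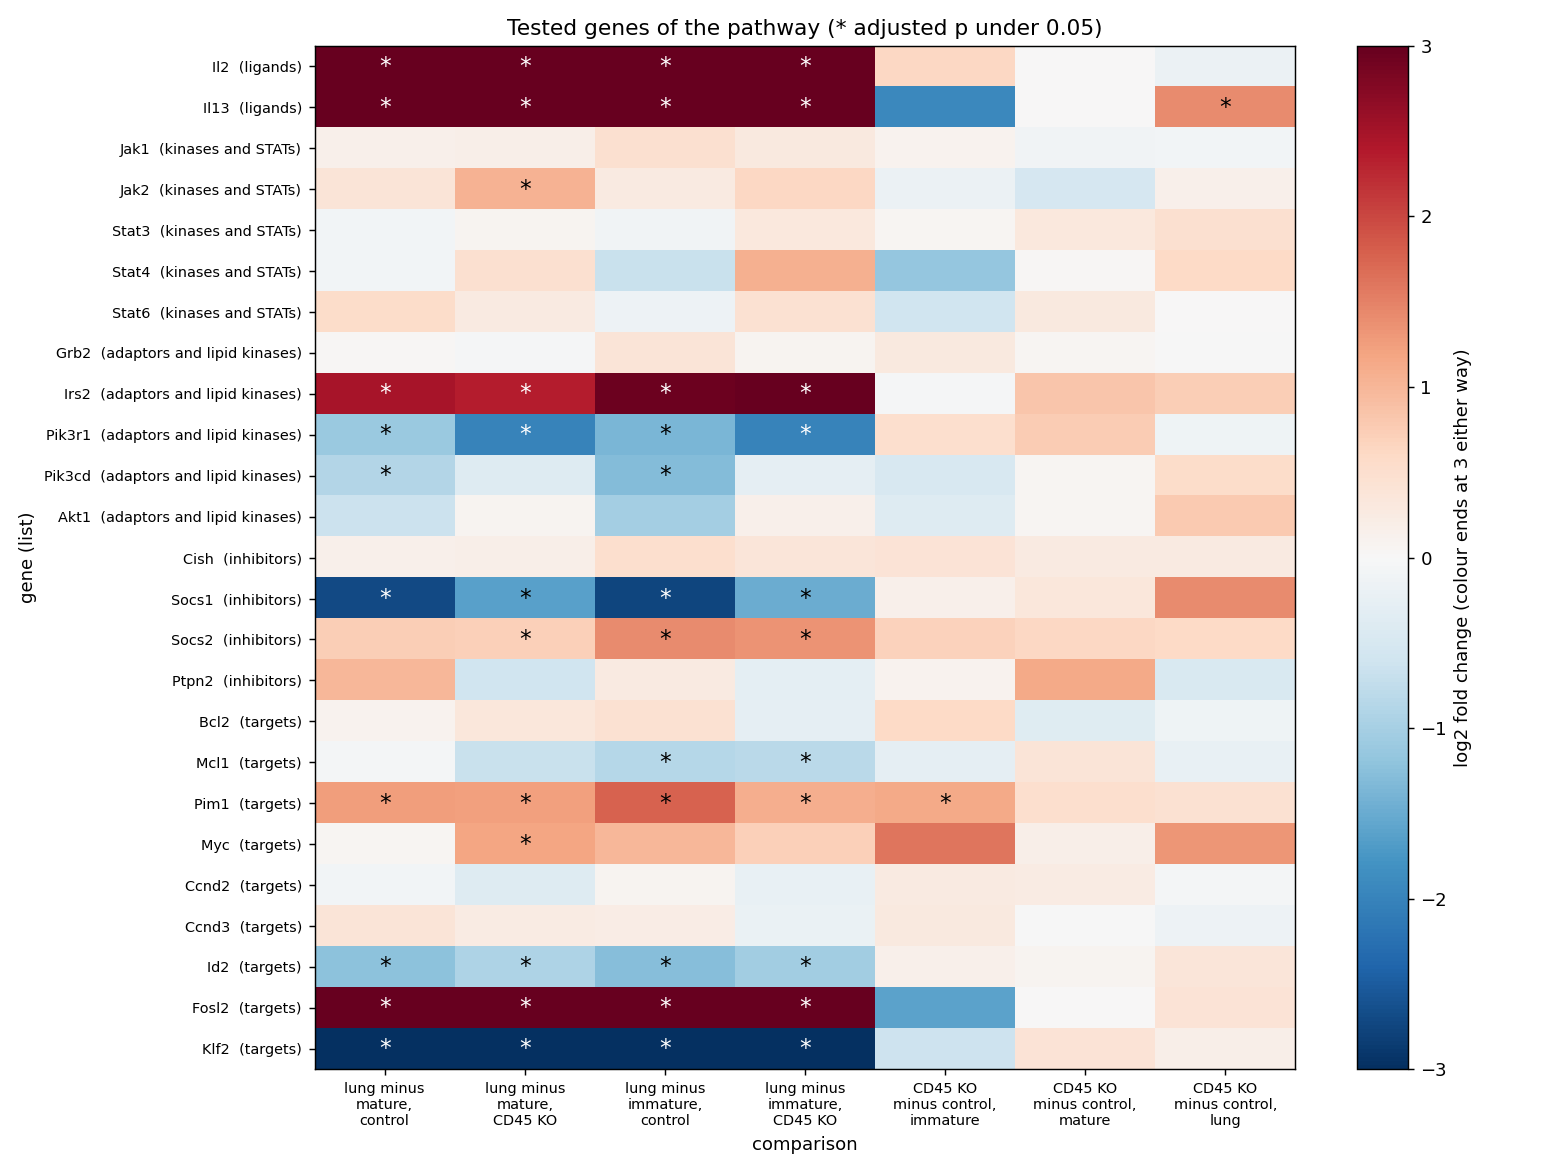
Log2 fold changes of the 25 tested pathway genes (rows, with their list) in 4 lung minus marrow and 3 CD45 KO minus control comparisons (columns), on a colour scale that ends at 3 either way. Asterisks mark an adjusted p under 0.05; cells at the end of the scale include fitted values against groups with 0 counts, which are no measure of size.

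The tested genes whose log2 CPM followed each member most closely over the 18 libraries were Stxbp6 (Pearson r = 0.83), Usmg5 (0.82) and Ramp1 (0.81) for Il2rg and Map3k8 (0.78), Gna13 (0.77) and Hnrnph1 (0.77) for Il7r. For Il2rb they were Igsf5, Arf4 and Arl5b (0.89 each), and for Il4ra Irs2 (0.94), Lif (0.92) and Snhg15 (0.92). Il2ra had no close follower, with Rab1b (0.62), Rpl27a (0.59) and Eif3h (0.58) at the head of the list. These values describe 18 libraries that fall into lung and marrow sets, so a gene that differed between tissues scores high with any other that did.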

How the data were processed

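ILC2 were sorted from marrow and lung. The labels give both 200 cells per sample and 100 cells per tube, and which applies is not settled. Per the labels' protocols, oligo-dT primers with a molecular barcode were used. The submitters' processing notes name STAR and mm10. The counter, its annotation, strand use and barcode collapsing are not stated there. The authors deposited whole-number counts per gene, unscaled, in 18 columns.

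Counts were scaled by TMM, low genes dropped by filterByExpr (minimum count 10, by group), and 6 group means fitted over all libraries with edgeR 4.0.16 in R 4.3.3. Each of 12 comparisons used the quasi-likelihood test, Benjamini-Hochberg adjustment over 1916 genes and a threshold of 0.05. SE is the log2 change divided by the square root of F. Alternatives were DESeq2 1.42.0 size factors, its Wald test, 2 other filters, only the contrast's libraries, a replicate block and each library left out. The steps were tested on simulated data. Floors of 3 counts cover counting error only.

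The members, the pathway and marker lists, and the rule for naming (members, Ptprc, up to 4 passing pathway genes per direction with the smallest p, and for each tested member the 3 genes most like it over the libraries) were chosen with earlier results of these data known. Some list genes are not reported here and were left out of the list counts.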

Additional observations from a re-analysis of the deposited data

Results flagged for a closer look

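Il4, a ligand of the receptors that contain Il4ra and Il2rg, was below the filter on low counts and was singled out after its values were seen. It had 0 counts in all 3 lung controls and 5, 12 and 3 counts in lung CD45 KO libraries (69.5, 112 and 40.5 CPM). Against a floor of 3 counts over the lung controls, the pooled lung CD45 KO level was 7.84-fold higher. The floor bounds the control side only and leaves out the spread of the CD45 KO libraries, so this is no lower limit on the difference. In marrow Il4 had 4, 5 and 7 counts in mature controls against 2, 2 and 6 in mature CD45 KO, and 4, 1 and 5 counts in immature controls against 1, 3 and 2 in immature CD45 KO. In an edgeR fit without the filter the CD45 effect differed between lung and marrow, with a fitted log2 difference of 6.83 (adjusted p = 0.000358), a value that depends on the prior count and is no measure of size. The lung CD45 effect passed there too (adjusted p = 0.000370), and leaving out each lung library in turn gave adjusted p from 0.000189 to 0.0484, the highest without lung CD45 KO replicate 2. DESeq2 gave no adjusted p for this gene.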

How the results depend on the processing

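Leaving out 1 library at a time gave 0 to 1 members passing for CD45 KO against control in lung, 1 to 3 for lung against mature controls and 1 to 4 for lung against immature controls. With the Wald test of DESeq2 the last 2 were 1 and 2. Without mature control 1 and mature CD45 KO 1 together, added after seeing the data, 1 member passed for the CD45 effect over both marrow stages. The other counts kept within 1.5 times. No value that turned its direction passed the threshold. Of CD45 effects in mature ILC2, Il2ra was log2 0.060 without a filter, and with both libraries left out Il2rb was -0.0070 and Il4ra -0.27. Over both stages Il2rb was 0.054 without a filter and Il2ra -0.0022 with at least 10 counts in 3 libraries. The lung minus marrow difference of CD45 effects for Il7r was 0.093 with both libraries left out, and the mature minus immature difference of Il2ra in CD45 KO mice was -0.013 there. Where leaving out 1 library turned a direction, the CD45 effects ranged in mature ILC2 from -0.25 to 0.083 (Il7r), -0.20 to 0.071 (Il2ra), -0.14 to 0.36 (Il2rb) and -0.21 to 0.47 (Il4ra). In immature ILC2 they ranged from -0.033 to 0.16 (Il2rg), -0.032 to 0.23 (Il2ra) and -0.62 to 0.16 (Il2rb), and over both stages from -0.051 to 0.081 (Il2ra) and -0.26 to 0.13 (Il2rb). The lung minus marrow differences of CD45 effects ranged from -0.19 to 0.060 (Il7r) and -0.032 to 0.63 (Il4ra), and the mature minus immature differences of CD45 effects from -0.051 to 0.16 (Il2rg) and -0.055 to 0.72 (Il2rb). Mature minus immature ranged in controls from -0.20 to 0.0020 (Il2rg) and -0.17 to 0.34 (Il7r), and in CD45 KO from -0.13 to 0.061 (Il2rg) and -0.13 to 0.14 (Il2ra). The cause was not tested. No pairing by the replicate numbers in the labels was detected. Same-numbered libraries had correlations of deviations from -0.0888 to 0.0755 over 45 pairs, and differently numbered ones from -0.0820 to 0.122 over 90 pairs. With a median mean count of 12.6 per tested gene, these correlations cannot exclude pairing. With the number as a block no member's call changed, and Il2ra in mature against immature CD45 KO became log2 -0.0048. Depth limits Il2rb, Il4ra, Il9r and Jak3 in marrow, where every library held fewer than 10 counts of each.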
